A study of Homo sapiens with 3 samples.

Results

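The androgen receptor target genes described here are 35 genes known to be induced by androgen in prostate cells, from the kallikrein proteases to elongation factors. SLC45A3, an androgen-induced gene that is a parent of the transcript targeted in the study, was kept out of the list. The members were listed by gene name, with earlier results of these data known, and a member was measured where the array annotation gave at least 1 probe set naming that gene and no other. Of the 35 genes, 30 had such a probe set, out of 18417 genes on the arrays. TMPRSS2, ADAM7, ACSL3, SORD and FKBP5 had none and are not analysed here. PART1, a prostate noncoding RNA gene regulated by androgen, was measured but lay below the filter on dim genes, which left 29 members among 12892 genes tested.

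The cells were LNCaP, an established line from a human prostate carcinoma metastasis that responds to androgen. They were grown in RPMI1640 with fetal bovine serum, and the labels name no added androgen. The control group is 1 array of cells transfected with a negative control siRNA, and the siRNA group is 2 arrays, 1 each of cells transfected with siSE1 or siSE2, siRNAs against the SLC45A3-ELK4 chimeric transcript. All cells were harvested 72 hours after transfection with RNAiMAX. The labels of the siSE2 array conflict, since its title names siSE2 and its transfection field siSE1; the title was used here, and under the other reading both arrays carry siSE1. No label ties the arrays to separate cultures. The p-values therefore reflect only the spread between the siSE1 and siSE2 arrays, in large part pooled over all genes. This spread may be technical.

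The androgen receptor is a nuclear receptor that binds androgen in the cytoplasm, enters the nucleus and binds DNA at androgen response elements, mostly in distal enhancers. Its best known targets in luminal prostate cells encode secreted proteases such as prostate-specific antigen, and others encode metabolic enzymes, ion channels and transcription regulators. SLC45A3 is itself such a target, and transcription reading on from it into its neighbour ELK4 gives the chimeric transcript. The comparison asks what happens to these targets when that transcript is targeted.

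Values are log2 expression values as deposited, and differences are an siRNA array minus the control array, also on the log2 scale. Probe sets of 1 gene were averaged. A gene passed the test where its adjusted p was under 0.05 (limma over all 12892 genes, Benjamini-Hochberg adjustment). The fit compares 2 arrays with 1 and has 1 residual degree of freedom, so the control array is assumed to vary as the siRNA arrays do. The variance prior, taken from all genes tested, adds 8.46 degrees of freedom, so each error rests mostly on the pooled spread. Both siRNAs are set against the same control array, so an error on that array moves both differences together. Errors are moderated standard errors (SE, n = 2 against 1) of this fit. Where an array pair is compared alone there is no replicate and no test. In bulk RNA, fewer cells expressing a gene and less RNA per cell cannot be told apart. A value shows a gene's whole signal on the array, and levels of different genes are not compared.

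Over the whole series, 92 genes (0.714%) passed as lower and 32 (0.248%) as higher. The arrays correlated at 0.989 to 0.993 (Pearson, over all 33297 probe sets), with no pair sharing over 131 identical values. Of the parent genes, SLC45A3 read 9.66 in the control, 9.14 for siSE1 and 9.27 for siSE2 (limma, adjusted p = 0.154). ELK4 read 8.50, 8.45 and 8.20 in the same order (limma, adjusted p = 0.582). Neither passed, and these probe sets report whole parent genes, so they do not check the knockdown of the chimera. The luminal keratin genes KRT8 and KRT18 read above 9.6 on every array. The basal keratin KRT5, the blood cell marker PTPRC and the neuroendocrine marker CHGA had means over the arrays below the filter level of 5.12. The stromal marker VIM lay above that level, at 6.89 in the control, 6.56 for siSE1 and 6.73 for siSE2.

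More of the targets lay below the control than above it, and most differences were small. Their median difference was -0.25 over the 29 members tested, against -0.019 over all genes tested. It was -0.22 with siSE1 and -0.21 with siSE2. Lower than the control with both siRNAs were 16 of the 29 members (55.2%), against 41.7% of all genes tested, and higher with both were 4 (13.8%), against 36.4%. The other 9 lay on opposite sides of the control with the siRNAs (31.0%, against 21.8%). ELL2 alone passed as lower (1 of 29, 3.45%, against 0.714% of all genes) and 0 passed as higher (against 0.248%). At an unadjusted p under 0.05 (limma), 8 members were lower (27.6%, against 11.3%) and 1 was higher (3.45%, against 6.46%). At least 1.5-fold from the control with both siRNAs were ELL2 on the low side (background 1.53%) and ACP3 on the high side (background 0.582%). With a difference of at least 0.32 on the log2 scale with both siRNAs, 5 members were lower (17.2%, against 8.02%) and 1 was higher (3.45%, against 4.27%). The 5 were ELL2, TMEM79, PMEPA1, KLK3 and ZBTB16. The most negative mean difference among the members was -0.79 and the most positive 0.76.

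**Figure D1:**
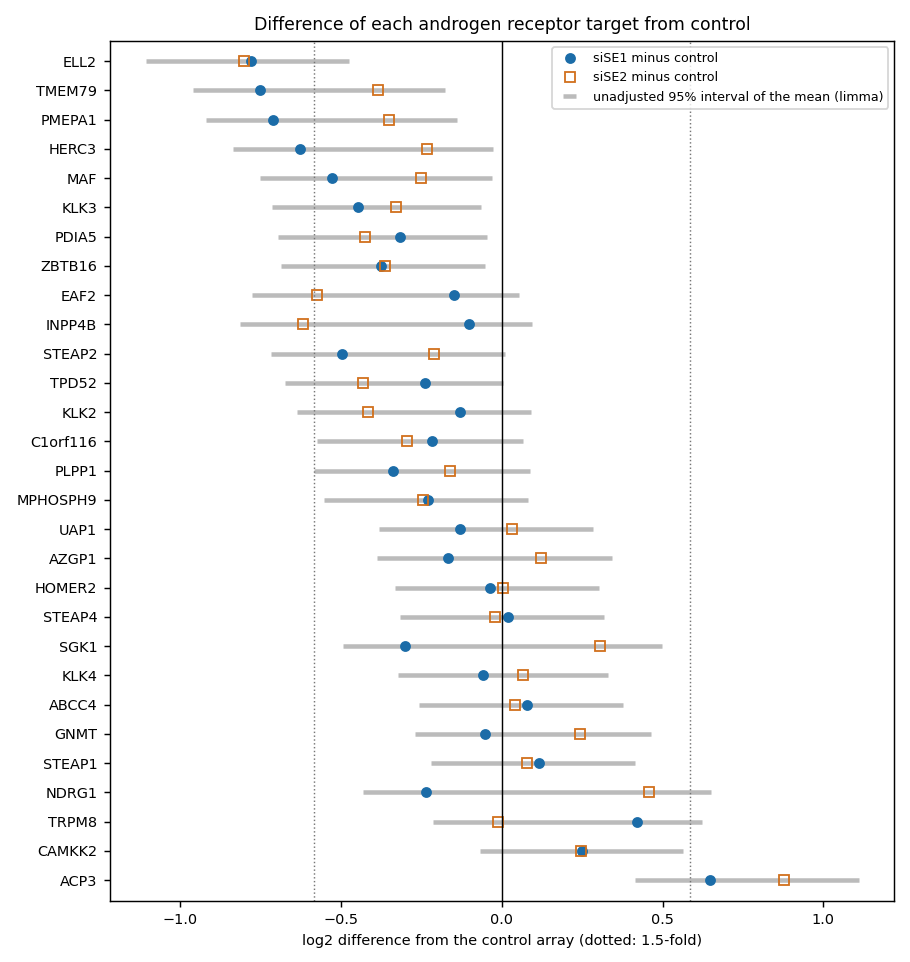
Difference of each of the 29 tested members from the control array on the log2 scale, ordered by the mean of both siRNAs, with siSE1 as filled circles, siSE2 as open squares, the unadjusted 95% interval of the mean from limma as grey bars and 1.5-fold as dotted lines. ELL2, at -0.78 and -0.80, is the only member beyond the lower line with both siRNAs, and ACP3, at 0.65 and 0.88, the only one beyond the upper line.

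The transcription and elongation factors held ELL2, the member that passed. All 4 were lower with both siRNAs (100%, against 41.7% of all genes tested), 1 passed and 3 did not. Their median difference was -0.38. ELL2 encodes a subunit of the super elongation complex, which helps RNA polymerase II through early pausing. ELL2 read 9.24 in the control, 8.45 for siSE1 and 8.43 for siSE2. Both siRNA arrays lay well below the control and within 0.020 of each other. ELL2 fell 1.73-fold (log2 -0.79 ± 0.14, SE; limma, adjusted p = 0.0398), and its unadjusted 95% interval ran from -1.11 to -0.47. It is the only member with 2 probe sets, and both were lower with both siRNAs. The dimmer read 9.17 in the control, 8.33 for siSE1 and 8.28 for siSE2, and the brighter 9.30, 8.58 and 8.59. With the brighter alone the mean difference was -0.72. Whether both read the same transcript was not tested, so they are not taken as independent readings. With no filter on dim genes the adjusted p of ELL2 was 0.126, and it was 0.0512 when the dimmer genes up to the 50th percentile were left out (limma), so its call depends on which genes enter the fit.

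EAF2 encodes a partner protein that binds ELL family factors and stimulates their elongation activity. EAF2 read 8.42 in the control, 8.27 for siSE1 and 7.85 for siSE2. Its difference was -0.15 with siSE1 and -0.57 with siSE2, so the low reading rested mostly on siSE2 (mean -0.36 ± 0.18, SE; limma, adjusted p = 0.338). ZBTB16, also called PLZF, encodes a zinc finger repressor that restrains growth. ZBTB16 read 8.65 in the control, 8.27 for siSE1 and 8.28 for siSE2, nearly the same on both siRNA arrays (mean -0.37 ± 0.14, SE; limma, adjusted p = 0.215). MAF, a basic leucine zipper factor, read 7.15, 6.62 and 6.90 in the same order, with the lower value on the siSE1 array (mean -0.39 ± 0.16, SE; limma, adjusted p = 0.249).

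**Figure D2:**
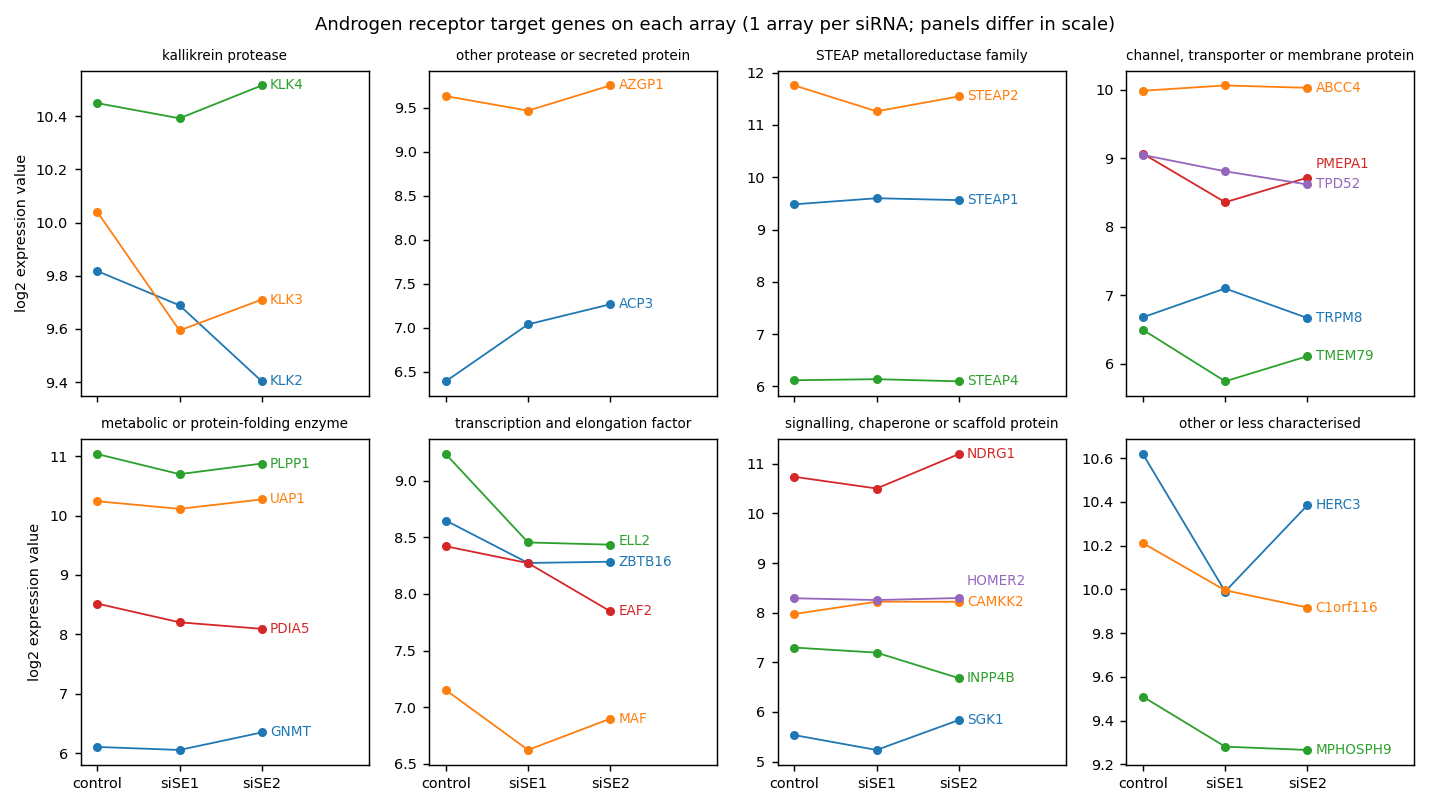
Log2 expression value of each tested member on the control, siSE1 and siSE2 arrays, 1 point per array, in 8 panels by role with their own scales. All 4 transcription and elongation factors read lower on both siRNA arrays than on the control array, as did 41.7% of all genes tested. ACP3 read 6.39 in the control and 7.04 and 7.26 on the siRNA arrays without passing the test.

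The kallikreins are serine proteases of seminal fluid, and KLK3 encodes prostate-specific antigen. KLK3 read 10.04 in the control, 9.59 for siSE1 and 9.71 for siSE2. Both siRNA arrays lay below the control, and the mean difference of -0.39 ± 0.14 (SE) did not pass (limma, adjusted p = 0.205). KLK2, whose product activates the KLK3 protease precursor, read 9.82 in the control, 9.69 for siSE1 and 9.40 for siSE2 (mean -0.27 ± 0.16, SE; limma, adjusted p = 0.415). KLK4, a kallikrein first known from tooth enamel that is also made in prostate, read 10.45, 10.39 and 10.52 in the same order, on opposite sides of the control. Its mean difference of 0.0048 ± 0.15 (SE) turned to -0.0011 with quantile normalization and -0.035 with equal array medians. The 3 genes are direct neighbours in the gene table, with 0 coding genes between them, yet KLK4 did not lie with the other two. KLK2 and KLK3 are close paralogs, so their probes could share signal.

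Because KLK2 and KLK3 are the textbook examples of an androgen response element near a start site, their upstream sequence is shown, 250 bases ending at the base before the transcript start (RefSeq, GRCh38.p14, plus strand). Capitals mark matches to AGAACA, a hexamer known from such elements, and to AGAACAGCAAGTGCT, the 15 bases of the KLK3 window that begin with that hexamer, with 1 mismatch allowed. Both strings were searched on both strands, and the longer one contains the hexamer.
KLK2 (chr19:50873189-50873438): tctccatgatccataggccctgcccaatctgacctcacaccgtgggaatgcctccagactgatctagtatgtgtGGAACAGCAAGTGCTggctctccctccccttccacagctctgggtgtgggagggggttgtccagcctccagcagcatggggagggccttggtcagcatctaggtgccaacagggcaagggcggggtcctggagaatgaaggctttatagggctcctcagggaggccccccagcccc
KLK3 (chr19:50854665-50854914): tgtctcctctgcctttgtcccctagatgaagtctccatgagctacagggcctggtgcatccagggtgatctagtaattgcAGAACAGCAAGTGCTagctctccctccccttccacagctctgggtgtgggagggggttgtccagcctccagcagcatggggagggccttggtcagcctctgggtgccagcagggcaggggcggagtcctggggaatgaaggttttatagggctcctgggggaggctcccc
The longer string stood 176 to 162 bases before the start of KLK2, with 1 mismatch, and 170 to 156 bases before that of KLK3, from which it was taken. The windows were identical at 79.2% of aligned positions. Of 35116 such windows in the table, 5 (0.0142%) held the longer string and 12.4% held AGAACA. Of the 35 members 27 had a window in the table, 49 windows in all. The longer string was found in KLK2 and KLK3, 2 of the 27 members, in 2 of the 49 windows (4.08%, against 0.0142%). It was taken from the KLK3 window, so that share is no test. AGAACA was found in KLK3, TRPM8 and PMEPA1, in 3 of the 49 windows (6.12%), a lower share than the 12.4% of all windows. ELL2 had no window in the table. These matches describe letters only, and receptor binding was not measured here.

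Among the other secreted proteins, ACP3 lay furthest above the control of all members tested. ACP3 encodes prostatic acid phosphatase, a secreted and membrane-bound enzyme that was used as a prostate marker before prostate-specific antigen. ACP3 read 6.39 in the control, 7.04 for siSE1 and 7.26 for siSE2. Both siRNA arrays lay above the control, by 0.65 and 0.88, a mean of 0.76 ± 0.15 (SE), which is 1.70-fold. It did not pass over all genes (limma, adjusted p = 0.0569), while the adjusted p was 0.0391 with quantile normalization, 0.0499 with cyclic loess and 0.0473 with a variance prior that follows intensity. AZGP1, which encodes the secreted zinc-alpha-2-glycoprotein, read 9.63 in the control, 9.47 for siSE1 and 9.75 for siSE2, on opposite sides of the control (mean -0.022 ± 0.16, SE; limma, adjusted p = 0.958). As the member furthest above the control on its less changed siRNA array, ACP3 is shown with the 250 bases before its start (RefSeq, GRCh38.p14, plus strand), in which neither string was found, so no base is in capitals.
ACP3 (chr3:132317157-132317406): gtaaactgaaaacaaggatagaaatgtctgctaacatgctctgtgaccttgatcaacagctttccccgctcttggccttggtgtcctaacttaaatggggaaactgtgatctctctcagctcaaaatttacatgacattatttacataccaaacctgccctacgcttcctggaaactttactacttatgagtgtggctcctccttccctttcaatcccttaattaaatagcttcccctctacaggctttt

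The STEAP genes encode members of a membrane metalloreductase family, and these genes had no common direction. STEAP2 read 11.76 in the control, 11.26 for siSE1 and 11.55 for siSE2, lower with both (mean -0.35 ± 0.16, SE; limma, adjusted p = 0.295). STEAP1, which lies next to STEAP2 with 0 coding genes between them, read 9.48, 9.60 and 9.56 in the same order, slightly higher with both (mean 0.098 ± 0.14, SE; limma, adjusted p = 0.759). STEAP4, which is separated from STEAP1 by 2 coding genes, read 6.12, 6.14 and 6.10, within 0.021 of the control with each siRNA. No STEAP gene passed, and the STEAP1 interval, from -0.22 to 0.42, and the STEAP2 interval, from -0.72 to 0.012, overlap.

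Of 5 genes for channels, transporters and other membrane proteins, 3 lay lower with both siRNAs (60%, against 41.7% of all genes tested). None of the 5 passed. TMEM79, a membrane protein gene best known from the skin barrier, read 6.50 in the control, 5.74 for siSE1 and 6.11 for siSE2. PMEPA1 encodes a membrane adaptor that damps TGF-beta signalling and promotes turnover of the receptor itself, and it read 9.07, 8.36 and 8.72 in the same order. After ELL2 these were the members with the lowest mean differences, -0.57 ± 0.17 (SE; limma, adjusted p = 0.141) for TMEM79 and -0.53 ± 0.17 (SE; limma, adjusted p = 0.164) for PMEPA1, and both were lower with siSE1 than with siSE2. TPD52, which encodes a vesicle trafficking protein, read 9.05, 8.81 and 8.62 (mean -0.33 ± 0.15, SE; limma, adjusted p = 0.285). TRPM8, the cold and menthol channel, read 6.68 in the control, 7.10 for siSE1 and 6.67 for siSE2, higher with siSE1 alone. ABCC4, an exporter of cyclic nucleotides and prostaglandins, read 9.99, 10.06 and 10.03, a mean difference of 0.060 ± 0.14 (SE; limma, adjusted p = 0.860).

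Of the 4 measured genes for enzymes of metabolism and protein folding, 2 lay lower with both siRNAs (50%, against 41.7% of all genes tested). Higher with both were 0 (0%, against 36.4%), and none passed. PDIA5, a disulfide isomerase of the endoplasmic reticulum, read 8.52 in the control, 8.20 for siSE1 and 8.09 for siSE2 (mean -0.37 ± 0.14, SE; limma, adjusted p = 0.223). PLPP1, a lipid phosphate phosphatase, read 11.03, 10.70 and 10.87 in the same order (mean -0.25 ± 0.15, SE; limma, adjusted p = 0.418). UAP1 and GNMT lay below the control with siSE1 and above it with siSE2, GNMT by 0.24 with siSE2. UAP1, which makes the sugar donor UDP-N-acetylglucosamine, read 10.24, 10.11 and 10.27, and GNMT, a glycine methyltransferase, read 6.10, 6.05 and 6.35.

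The signalling and scaffold genes had no common direction, with a median difference of 0.0023 over 5 members. INPP4B, a lipid phosphatase that restrains PI3 kinase signalling, read 7.30 in the control, 7.20 for siSE1 and 6.68 for siSE2, so the low reading rested mostly on siSE2 (mean -0.36 ± 0.20, SE; limma, adjusted p = 0.386). CAMKK2, a calcium-dependent kinase that activates AMPK, read 7.97, 8.22 and 8.22, higher by nearly the same amount with both (mean 0.25 ± 0.14, SE; limma, adjusted p = 0.391). HOMER2, a scaffold gene, read 8.29, 8.26 and 8.30, within 0.036 of the control with each siRNA. NDRG1, a differentiation and stress gene, read 10.74 in the control, 10.50 for siSE1 and 11.20 for siSE2. SGK1, a kinase gene also induced by glucocorticoids, read 5.53, 5.23 and 5.84. NDRG1 and SGK1 thus lay below the control with siSE1 and above it with siSE2, so their mean differences, 0.11 ± 0.24 and 0.0023 ± 0.22 (SE), describe neither array.

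The 3 remaining tested members were all lower with both siRNAs (100%, against 41.7% of all genes tested). HERC3, a ubiquitin ligase gene, read 10.62 in the control, 9.99 for siSE1 and 10.38 for siSE2, lower mostly with siSE1 (mean -0.43 ± 0.18, SE; limma, adjusted p = 0.250). C1orf116, known as a specifically androgen-regulated gene, read 10.21, 10.00 and 9.92 in the same order, and MPHOSPH9, which encodes a centriole protein, read 9.51, 9.28 and 9.27. Both were lower with both siRNAs by similar amounts, with means of -0.26 ± 0.14 and -0.24 ± 0.14 (SE), and neither passed (limma, adjusted p = 0.383 and 0.416). PART1, below the filter and untested, read 4.72 in the control, 4.70 for siSE1 and 3.90 for siSE2.

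A larger share of the members than of all genes lay apart between the siRNAs. At least 0.32 apart on the log2 scale were 8 of 29 members (27.6%), against 10.4% of all genes tested, and at least 1.5-fold apart were NDRG1 and SGK1 (6.90%, against 1.16%). Beyond the 1.5-fold line with siSE1 alone lay TMEM79, PMEPA1 and HERC3, and with siSE2 alone INPP4B. With siSE1 4 members were past 1.5-fold lower (13.8%, against 4.27%) and 1 past it higher (3.45%, against 1.45%). With siSE2 these were 2 (6.90%, against 2.82%) and 1 (3.45%, against 1.20%). The members past the line below shared ELL2, 1 of the 4 with siSE1 and 1 of the 2 with siSE2, against 35.8% and 54.1% of such genes over all tested, so their overlap was near the background. The siRNA difference has no test with 1 array each.

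**Figure D3:**
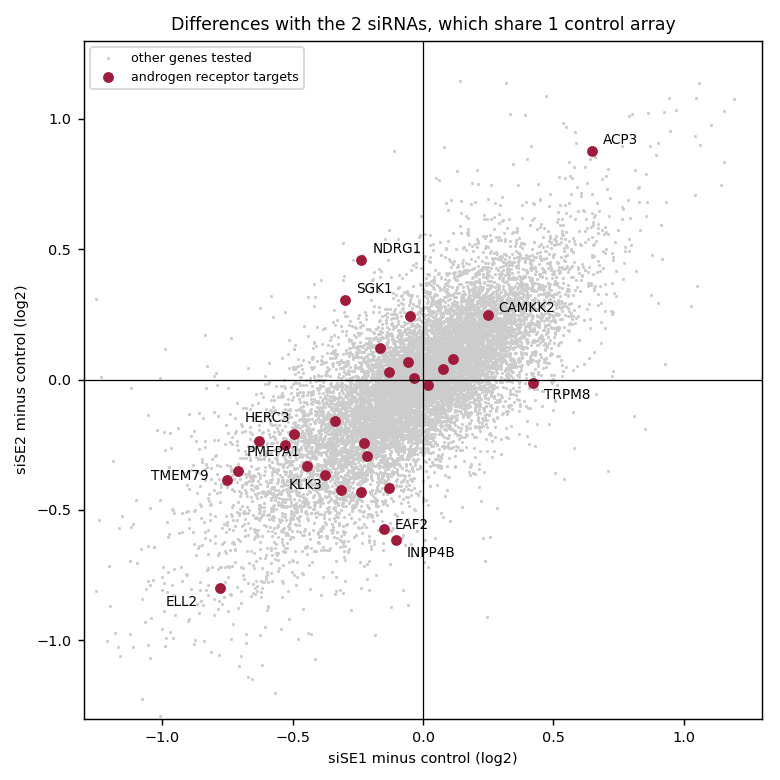
Log2 difference from the control array with siSE1 (horizontal) and siSE2 (vertical) for the 29 members (red) and the other genes tested (grey), with 27 genes outside the axes, which end at 1.3. Both differences share the control array, which alone stretches the cloud along the diagonal; 16 members lie to the lower left of both zero lines and 4 to the upper right, with NDRG1 and SGK1 farthest into the upper left.

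The members were brighter than most genes, and brightness moved with the differences. The brightest of 4 equal groups of the genes tested held 19 of the 29 members, and the median difference of all its 3223 genes was -0.058, against 0.082 in the dimmest group. The 19 bright members had a median of -0.26. The 2 members of the second brightest group had a median of -0.057, against -0.065 for all its genes. The 5 members of the second dimmest group, ACP3 among them, had a median of 0.097, against -0.025. Quantile normalization and cyclic loess even out shifts between arrays that depend on brightness. With these the median of the members was -0.24 and -0.23, against -0.0042 and -0.015 over all genes tested. Lower with both siRNAs were 17 of the 29 members in each, against 39.2% and 41.2% of all genes tested. The part of brightness in the differences of single members was not tested.

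Genes of the same pathway outside the members were taken from lists compiled for this work. The wider list of other androgen-response genes lay on the same side. Of 77 genes listed, 68 were tested; 1 fell, 0 rose and 67 did not pass. Lower with both siRNAs were 44 (64.7%) and higher with both 6 (8.82%), against 41.7% and 36.4% of all genes tested, and the median was -0.17. SLC26A2, a sulfate transporter gene, fell 2.05-fold, from 7.84 on the control array to 6.78 with siSE1 and 6.82 with siSE2 (limma, adjusted p = 0.0223, and 0.0927 with no filter). VAPA, a membrane contact site gene, read 7.97, 7.06 and 7.46, and MERTK, a receptor kinase gene for clearing dying cells, read 6.95, 6.07 and 6.45. Neither passed (limma, adjusted p = 0.0929 and 0.0937). On the high side DNAJB9, a chaperone gene of the unfolded protein response, read 7.08, 7.47 and 8.10, SLC38A2, an amino acid transporter gene, 10.23, 10.38 and 10.68, and KLK15, another kallikrein, 6.40, 6.68 and 6.53, none of them passing.

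The genes listed as repressed by the receptor lay mostly on the other side, though on few genes. Of 20 listed, 18 had a probe set, of which 9 lay below the filter and 9 were tested. Higher with both siRNAs were 7 (77.8%, against 36.4% of all genes tested) and lower with both 2 (22.2%, against 41.7%). The median of the 9 was 0.34, at 0.11 with siSE1 and 0.42 with siSE2, and their mean was 0.13. With no filter the median was 0.24. CAMK2N1, an inhibitor of CaM kinase II, read 9.54 in the control, 10.08 for siSE1 and 10.52 for siSE2 (limma, adjusted p = 0.0910). ST7 read 8.61, 9.06 and 9.10, and MET, the hepatocyte growth factor receptor, 5.34, 5.77 and 5.75, both without passing (limma, adjusted p = 0.134 and 0.168). The exceptions were CLGN, a chaperone gene of the endoplasmic reticulum, which fell 1.89-fold, from 7.23 to 6.39 and 6.22 (limma, adjusted p = 0.0326, and 0.115 with no filter), and PEG10, a retrotransposon-derived gene, which read 6.68, 6.07 and 5.59 (limma, adjusted p = 0.0723). CLGN was the only one of the 9 to pass, so the counts of passing genes and the median point in different directions.

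The receptor's cofactors did not share a direction. Of 36 listed, 30 were tested and 0 passed. Lower with both siRNAs were 11 (36.7%, against 41.7% of all genes tested) and higher with both 13 (43.3%, against 36.4%). The median was -0.0052. MED1, the Mediator subunit that nuclear receptors contact, read 9.91 in the control, 9.45 for siSE1 and 9.03 for siSE2. NCOA1, a receptor coactivator, read 8.46, 8.13 and 7.94, and PIAS4, a SUMO ligase, 7.70, 7.36 and 7.33. These were the cofactors furthest down on both arrays, at adjusted p of 0.111, 0.190 and 0.232 (limma). On the high side NCOA7 read 6.10, 6.71 and 6.81, SMARCE1, a chromatin remodelling subunit, 8.84, 9.20 and 9.23, and NCOA4 8.54, 8.85 and 8.81. Their adjusted p were 0.0662, 0.211 and 0.315 (limma).

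**Figure D4:**
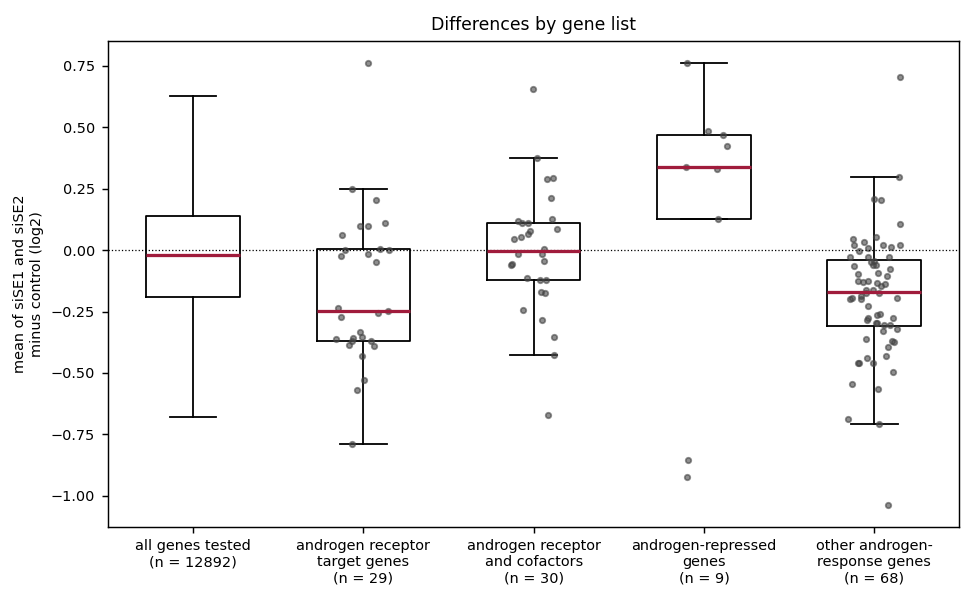
Mean of the siSE1 and siSE2 differences from control (log2) for all genes tested, the members and the other pathway lists, as boxes from the 25th to the 75th percentile with the median in red, whiskers to the furthest gene within 1.5 box lengths and, for the lists, 1 point per gene. The medians are -0.019 for all genes, -0.25 for the members, -0.0052 for the cofactors, 0.34 for the repressed genes (0.11 with siSE1 alone and 0.42 with siSE2 alone) and -0.17 for the other androgen-response genes.

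Markers of luminal cells lay on both sides of the control. Of 9 luminal markers with a probe set, 8 were tested. Of these 5, CD24 among them, were higher with both siRNAs (62.5%, against 36.4% of all genes tested). Lower with both were 2 (25%, against 41.7%). Their mean differences ran from -0.37 to 0.99. The summed level of the 9 markers was 12.55 in the control, 12.67 for siSE1 and 12.69 for siSE2 (log2). CD24, chosen after its values were seen, was the only luminal marker to pass; it read 4.99 in the control, 6.14 for siSE1 and 5.83 for siSE2 (limma, adjusted p = 0.0372, 0.0519 with equal array medians and 0.124 with no filter). Its control value lies below the filter level of 5.12, so it entered the test through the siRNA arrays. KRT8 read 10.24, 10.73 and 10.61. Summed levels on the same arrays were 8.15, 8.27 and 8.29 for 7 basal markers, 11.26, 11.20 and 11.13 for 11 fibroblast and stromal markers, 8.39, 8.72 and 8.73 for 8 blood cell markers, and 7.89, 8.09 and 8.03 for 8 neuroendocrine markers. Of the 8 blood cell markers 4 lay below the filter. The 4 tested were all higher with both siRNAs (100%, against 36.4% of all genes tested), with a median of 0.28 and a highest mean difference of 1.19. Their mean level in the control was 5.63, near the filter level of 5.12. Among the other tested markers, 3 of 4 basal (75%), 4 of 8 fibroblast and stromal (50%) and 1 of 2 neuroendocrine ones (50%) were higher with both, against the same 36.4%. No marker of these other cell types passed, and their part in the differences of the targets was not tested.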

How the data were processed

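The deposited table holds log2 values of 33297 probe sets on 3 arrays. Per the submitters' processing notes, the authors used Affymetrix Expression Console to produce the log2 values; its version and settings, the normalization and the build were not given in the sources used here. The log2 scale was read from the range (1.43 to 13.9) and the array medians (5.80, 5.84 and 5.84). In the platform annotation 19460 probe sets had 1 gene, 1754 had several and 12083 were unnamed; symbols were updated through a gene table for 19429. Probe sets were averaged per gene, and 5525 of 18417 genes with a mean below the 30th percentile (5.12) were left out. limma 3.58.1 (R 4.3.3) compared the siRNA arrays with the control array, with Benjamini-Hochberg adjustment; the fit was tested on simulated data. The number of arrays limits the precision. Slides and scan dates were not given there either.

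The members and lists were chosen with earlier results of these data known. All members with a probe set are named. From each pathway list the text names every gene that passed and up to 3 genes on each side, those furthest from the control on their less changed siRNA array. KRT8, KRT18, KRT5, VIM, PTPRC and CHGA were named as defining markers, and CD24 after its values were seen. Alternatives covered normalization, filter, probe set choice, variance prior, thresholds and leaving out an siRNA array.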

Additional observations from a re-analysis of the deposited data

Results flagged for a closer look

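NDRG1 and SGK1 drew attention because they lay on opposite sides of the control on the siSE1 and siSE2 arrays, by at least 0.2 on the log2 scale each. NDRG1 was 0.69 higher with siSE2 than with siSE1, at -0.24 with siSE1 and 0.46 with siSE2. SGK1 was 0.60 higher with siSE2, at -0.30 and 0.30. With 1 array per siRNA these differences were not tested. No group holds the 4 arrays needed to look for an outlying array.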

How the results depend on the processing

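The count of members passing as lower went from 1 to 0 with no filter and with the stricter filter (50th percentile), and the count passing as higher from 0 to 1 (ACP3) with quantile normalization, cyclic loess, the intensity-dependent prior and a threshold of 0.1. Over all genes, 0 were lower and 1 higher with no filter, and 20 and 15 with the stricter filter. The count higher over all genes was 63 with quantile normalization, 21 with equal array medians and 52 with the other prior. At 0.32 on the log2 scale 5 members were lower with both siRNAs, and at 2-fold 0 were lower and 0 higher. Leaving out an siRNA array, which leaves no test, gave 2 to 4 members past 1.5-fold lower. The members' median was -0.24 with quantile normalization, -0.29 with equal array medians, -0.23 with cyclic loess, -0.26 with the stricter filter, and -0.22 to -0.21 with an siRNA array left out. The cofactor median was 0.049, -0.045 and 0.032 under the 3 normalizations in that order, and 0.022 to -0.00024 with an siRNA array left out, so its sign is not settled. The median of other androgen-response genes was -0.14, -0.21 and -0.14, and that of repressed genes 0.11 to 0.42 with an siRNA array left out. Mean differences that changed sign, none of them called, were KLK4 (-0.0011 with quantile normalization, -0.035 with equal medians), AZGP1 (0.0088 with quantile, 0.0066 with loess), HOMER2 (0.035 and 0.029), STEAP4 (-0.025, -0.040 and -0.037 with quantile, equal medians and loess) and SGK1 (-0.057, -0.038 and -0.070). No other member changed sign under the alternatives that keep all 3 arrays. Apart from the settings whose effect follows from which genes are tested, the cause was not tested. No paired analysis was possible because the control group holds 1 array.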

Other observations

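Of the probe sets on the array, 3 name a member together with other genes, so their signal belongs to no single gene and entered no comparison. In the annotation TMPRSS2 and FKBP5, which had no probe set of their own, are named on such shared probe sets. Probe set 8125919, whose annotation names 2 genes, read 9.87 in the control, 9.20 for siSE1 and 9.08 for siSE2, past 1.5-fold lower with both siRNAs. Probe set 8151471, also of 2 genes, read 6.34, 6.21 and 6.15 in the same order, slightly lower with both. Probe set 8070467, of 3 genes, read 10.74, 10.69 and 10.80, on opposite sides of the control.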
